A study of Homo sapiens with 6 samples.

Results

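The genes described here are 9 that encode factors of nonsense-mediated decay (NMD): UPF1, UPF2, UPF3A, UPF3B, SMG1, SMG5, SMG6, SMG8 and SMG9. They were chosen by name, as UPF and SMG genes known for feedback by the pathway itself, from the 58780 human genes in the tables. The choice did not use their values here, but earlier results of these data were known when it was made. All 9 passed the filter on low counts, which left 19725 genes. The RNA-seq data come from HCT116, a human colorectal carcinoma cell line, and cover 3 libraries of cells kept for 16 h in auxin and 3 of cells given DMSO. Auxin is a plant hormone that triggers degradation of a protein carrying a degron tag. The labels name neither the tagged protein nor the tag, clone or auxin dose, and they state no allele for either group. The labels call the 3 libraries of a group biological replicates.

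NMD degrades messenger RNAs on which the ribosome stops early or far from the normal end of the message. UPF1, an RNA helicase, is its central enzyme, and UPF2 with UPF3A or UPF3B links UPF1 to the exon junction complex, the protein mark left on spliced RNA. SMG1 is the kinase that phosphorylates UPF1, SMG8 and SMG9 restrain SMG1, and phosphorylated UPF1 recruits SMG5 and SMG6, of which SMG6 cuts the RNA. The messages of several of these factors are themselves known targets of the pathway.

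Expected counts summed to between 234037969 and 625895062 per library, and replicate 1 was the deepest in both groups. Each member had between 2163 and 200623 expected counts in a library. Of 8 colorectal epithelial markers, 6 had a TPM (transcript abundance corrected for length) of at least 1 in every library, while VIL1 and LGALS4, markers of differentiated gut epithelium, stayed under 1. Of 8 markers of leukocytes, fibroblasts and endothelium, 6 stayed under 1 TPM, with PTPRC and CD3E at 0. Their summed level was 40.9 to 68.3 TPM in DMSO and 11.3 to 20.5 TPM in auxin, nearly all of it from CD68, a lysosomal protein also made outside macrophages. Replicate 1 stood apart from the other two libraries in both groups. The replicate 1 libraries deviated together from their group means, with a correlation across genes of 0.65. For replicates 2 and 3 the same-numbered values, 0.27 and 0.28, lay between the crossed ones, 0.18 and 0.31. Results with the number as a block are given beside the calls and counts that it changed.

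UPF1, SMG9 and UPF3A fell after auxin and SMG8 rose, while UPF2, UPF3B, SMG1, SMG5 and SMG6 did not pass the test in the comparison of the groups alone. Thus 4 of 9 members were called at an adjusted p under 0.05 (edgeR quasi-likelihood test, Benjamini-Hochberg adjustment over all genes tested), against 52.3% of all genes tested. By direction, 1 member was called higher, beside 25.4% of all genes, and 3 were called lower, beside 26.9%. The median log2 fold change of the members was −0.10, and that of all genes tested was 0.02. The libraries of the groups did not overlap for 5 members, against 60.3% of all genes: 1 higher, beside 30.0%, and 4 lower, beside 30.4%. The share of members called was thus not above that of genes at large. With the replicate number as a block, all 9 members were called, where 69.9% of all genes were, with 4 higher, beside 35.5%, and 5 lower, beside 34.4%. With the same block in limma on log2(TPM + 0.1), chosen after seeing the data, 1 member was called higher and 4 lower. That fit called 3489 of all 19725 genes higher and 6882 lower, and UPF2, SMG1, SMG5 and SMG6 were not called in it. In CPM, each of the 9 moved in the same direction in 3 of 3 pairs of same-numbered libraries, but the share of all genes that did so was not counted.

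**Figure D1:**
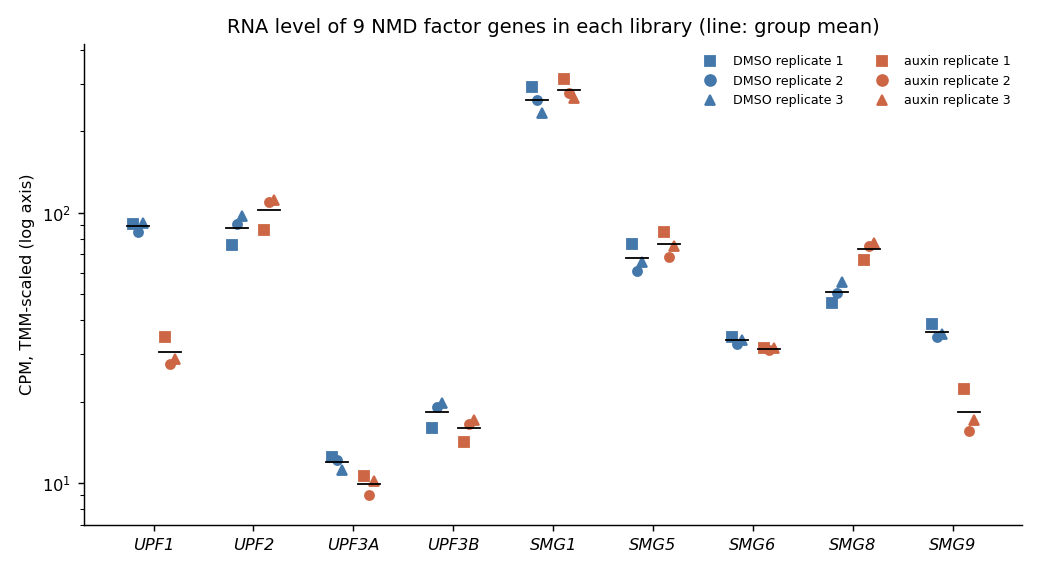
Level of each NMD factor gene in CPM (expected counts scaled to library size, log axis) in the 3 DMSO (blue) and 3 auxin (orange) libraries, with a line at each group mean. All 3 auxin libraries of UPF1 lie between 27.6 and 34.8 CPM, below the DMSO libraries at 84.8 to 91.8, and SMG9 separates likewise.

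UPF1 (ENSG00000005007.12, chr19:18831938-18868236 on the plus strand of GRCh38) had the largest change of the 9. Its level was 90.9, 84.8 and 91.8 CPM in DMSO replicates 1 to 3 and 34.8, 27.6 and 28.8 CPM in auxin replicates 1 to 3. All auxin libraries lay below all DMSO libraries. The mean was 89.2 ± 3.8 CPM in DMSO and 30.4 ± 3.8 CPM in auxin (SD, n = 3), and so 2.93-fold lower. The log2 fold change was −1.55 (SE 0.10, edgeR adjusted p 2.1e-05), and 7.91% of the genes tested had a lower value. No setting tried ended this call. In bulk RNA, fewer cells that express a gene and less RNA per cell cannot be told apart.

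UPF2 (chr10:11920022-12043170, minus strand), the scaffold that joins UPF1 to the UPF3 proteins, had 76.1, 90.7 and 96.7 CPM in DMSO and 86.3, 109.1 and 110.9 CPM in auxin. The ranges overlapped, because replicate 1 was the lowest library in each group. Its log2 fold change was 0.22 (SE 0.12, edgeR adjusted p 0.187). With the replicate block the edgeR adjusted p was 0.000238, and without auxin replicate 1 it was 0.0316.

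UPF3A (chr13:114281584-114305817, plus strand), the weaker paralog of the pair that docks on the exon junction complex, had 12.5, 12.2 and 11.2 CPM in DMSO and 10.6, 9.05 and 10.2 CPM in auxin. The groups did not overlap, but the gap between them was small. Its log2 fold change was −0.26 (SE 0.09, edgeR adjusted p 0.0458), and 0.00602 with the replicate block. The call was lost without auxin replicate 2 (0.151) or 3 (0.101) and without DMSO replicate 1 (0.109) or 2 (0.101). It was also lost with upper-quartile factors (log2 fold change −0.14, adjusted p 0.296), with library size only (0.0629), with no filter on low counts (0.0622) and in limma on log2(TPM + 1) (0.445) or log2(TPM + 0.1) (0.407).

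UPF3B (chrX:119805311-119852998, minus strand), the X-linked paralog, had 16.0, 19.0 and 19.8 CPM in DMSO and 14.1, 16.6 and 17.1 CPM in auxin. The 2 higher auxin libraries lay within the DMSO range. The log2 fold change was −0.20 (SE 0.11, edgeR adjusted p 0.182), and the p with the replicate block was 0.00252. With library size only it was 0.0268.

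SMG1 (chr16:18804853-18926454, minus strand), the kinase, had 290.9, 260.2 and 233.1 CPM in DMSO and 310.4, 277.4 and 265.6 CPM in auxin. The ranges overlapped, and the log2 fold change was 0.12 (SE 0.10, edgeR adjusted p 0.345). Blocking on the replicate number gave an adjusted p of 0.00894. Pseudogenes elsewhere on chromosome 16 share much of its sequence, so its count depends on how reads were divided between the copies. Of 7 such pseudogenes, 1 rose, SMG1P2, at a log2 fold change of 0.45 (adjusted p 0.0231), and 0 fell. The call of SMG1P2 was lost without DMSO replicate 3, and with the replicate block 3 pseudogenes were called higher and 2 lower.

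SMG8 (chr17:59209400-59215247, plus strand), a partner that holds SMG1 in an inactive form, was the only member called higher. It had 46.4, 50.3 and 55.5 CPM in DMSO and 66.8, 75.5 and 77.0 CPM in auxin, with every auxin library above every DMSO library. The mean was 50.7 ± 4.5 CPM in DMSO and 73.1 ± 5.5 CPM in auxin (SD, n = 3), 1.44-fold higher in auxin. Its log2 fold change was 0.53 (SE 0.09, edgeR adjusted p 0.00183). Another annotated protein-coding gene, AC099850.2, lies on the same strand over 5827 bases of SMG8 and did not pass the filter on low counts. The call was lost when log2(TPM + 1) or log2(TPM + 0.1) was tested with limma without the block (adjusted p 0.13 in both).

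SMG9 (chr19:43727992-43754990, minus strand), which binds SMG8 and joins it to SMG1, went the other way. It had 38.8, 34.5 and 35.6 CPM in DMSO and 22.2, 15.6 and 17.1 CPM in auxin. No auxin library reached the DMSO range. The mean was 36.3 ± 2.2 CPM in DMSO and 18.3 ± 3.5 CPM in auxin (SD, n = 3), 1.98-fold lower. Its log2 fold change was −0.99 (SE 0.13, edgeR adjusted p 0.000728). A lower log2 fold change was found for 14.2% of the genes tested. With limma on TPM without the block the adjusted p was 0.110 at a pseudocount of 1 and 0.0911 at 0.1.

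SMG5 (chr1:156249224-156282825, minus strand), an adaptor that binds phosphorylated UPF1, had 76.5, 60.8 and 65.7 CPM in DMSO and 85.1, 68.7 and 75.5 CPM in auxin. The ranges overlapped, and in each group replicate 1 was highest. Its log2 fold change was 0.18 (SE 0.11, edgeR adjusted p 0.219), and 0.000372 with the replicate block.

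SMG6 (chr17:2059839-2303771, minus strand), the endonuclease, showed the smallest change of the 9. Its level was 34.6, 32.7 and 33.9 CPM in DMSO and 31.4, 31.1 and 31.7 CPM in auxin, so the groups did not overlap although the means differed by only 1.08-fold. The log2 fold change was −0.10 (SE 0.05, edgeR adjusted p 0.141), and 0.0214 with the replicate block. With upper-quartile factors it was 0.02 where the median of all genes was 0.15, so its sign changed while it lay below that median in both fits. SRR, on the opposite strand, overlaps 389 bases of SMG6 and had a log2 fold change of 0.22 (adjusted p 0.168).

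**Figure D2:**
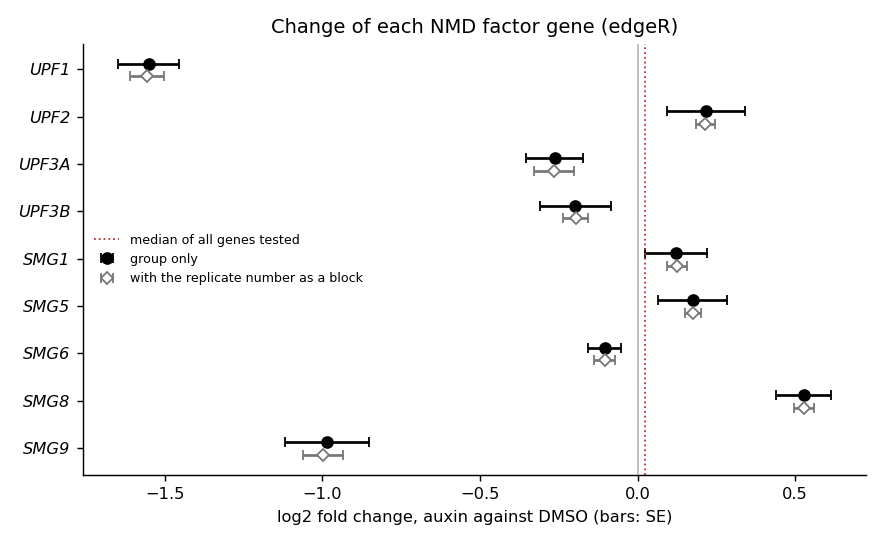
Log2 fold change, auxin against DMSO, of each NMD factor gene from edgeR with the group alone (filled circles) and with the replicate number as a block (open diamonds), with bars of 1 SE either side. UPF1 at −1.55 and SMG9 at −0.99 lie far from the median of all genes tested at 0.02 (dotted line), and the block narrows the bars while leaving the values in place.

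Per length, in TPM, the order of the members changed between the groups. In DMSO the group means ran from SMG1 at 22.2 ± 8.9 through SMG8 at 19.9 ± 3.4, SMG9 at 19.8 ± 6.6, UPF1 at 17.8 ± 4.5, UPF2 at 17.2 ± 1.8 and SMG5 at 16.6 ± 6.1 to UPF3B at 8.97 ± 1.2, UPF3A at 7.07 ± 2.1 and SMG6 at 6.20 ± 1.8 TPM (SD, n = 3). The libraries of the upper 6 overlapped one another, as did those of the lower 3, and every library of the upper 6 lay above every library of the lower 3. In auxin the means ran from SMG8 at 25.9 ± 1.9 through SMG1 at 23.0 ± 6.7, UPF2 at 17.9 ± 0.72, SMG5 at 16.6 ± 4.4, SMG9 at 10.8 ± 4.5, UPF3B at 7.19 ± 0.53 and UPF1 at 6.68 ± 2.0 to UPF3A at 5.47 ± 1.3 and SMG6 at 5.13 ± 0.94 TPM. UPF1 thus moved from the upper set to the range of UPF3B, UPF3A and SMG6. Replicate 1 had the highest TPM of its group for every member except UPF2 in auxin, which widened the SDs on this scale.

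The transcript tables divide each gene between its annotated transcripts, 95 for the 9 members. For UPF1 and SMG9 the loss at the gene level went with a shift from protein-coding transcripts to transcripts annotated as retained introns or other noncoding types. In UPF1 the share of TPM outside protein-coding transcripts was 6.24, 3.53 and 3.96% in DMSO and 36.4, 29.1 and 27.4% in auxin. In SMG9 it was 32.4, 27.7 and 24.3% in DMSO and 59.2, 48.8 and 47.7% in auxin. The groups did not overlap for either gene. The log2 ratio of noncoding to coding TPM changed by 3.19 (SE 0.28) for UPF1 and by 1.46 (SE 0.25) for SMG9, with limma adjusted p of 0.000549 and 0.0084. These were 2 of 9 members, both higher, beside 13.3% of the 9526 genes tested that were called higher. The other 7 had adjusted p between 0.35 and 0.99.

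Coding TPM was lower in auxin for both genes, while the noncoding part differed. For UPF1, coding transcripts summed to 17.0 ± 4.0 TPM in DMSO and 4.54 ± 1.0 TPM in auxin (SD, n = 3), 3.74-fold lower, and the remaining transcripts to 0.86 ± 0.50 and 2.13 ± 0.99 TPM, a mean 2.47 times as high. For SMG9, coding transcripts summed to 14.0 ± 3.9 and 5.01 ± 1.3 TPM, 2.80-fold lower, and the remaining ones to 5.72 ± 2.7 and 5.78 ± 3.2 TPM. These sums were not tested, only their ratio. UPF3A had the largest noncoding share in DMSO, 62.9, 53.9 and 49.4%, and 71.3, 56.5 and 64.4% in auxin, with overlapping ranges. UPF2 and UPF3B had under 1% of their TPM outside coding transcripts in every library. No UPF1, UPF2, UPF3A, UPF3B, SMG5 or SMG6 transcript is annotated as an NMD target, and SMG1, SMG8 and SMG9 have 1 each. The mean share of SMG9-206 went from 0.577% in DMSO to 2.40% in auxin, and that of SMG8-205 from 0.315 to 0.111%. Neither of these shares was tested.

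**Figure D3:**
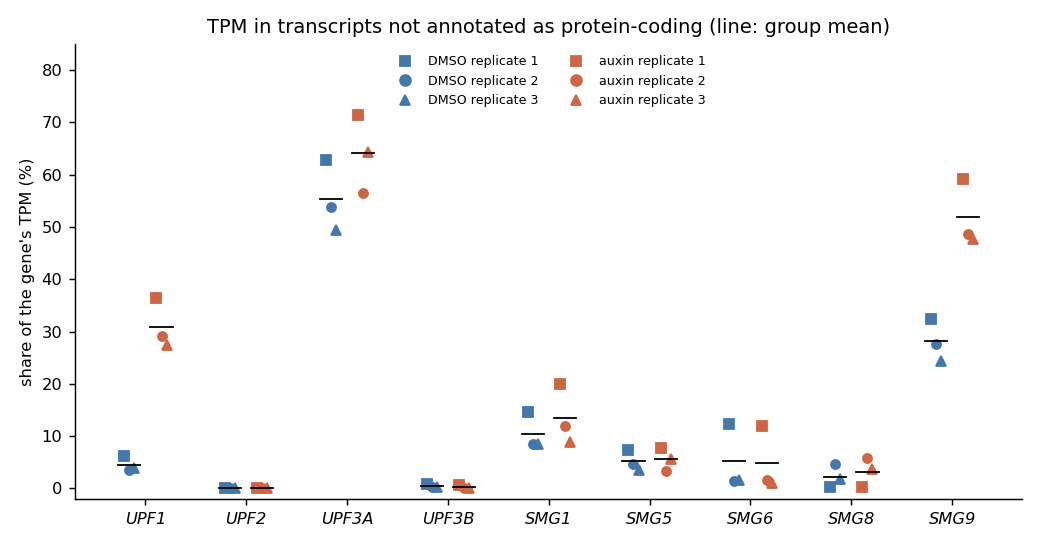
Share of each gene's TPM, in percent, that falls in transcripts not annotated as protein-coding, in the 3 DMSO (blue) and 3 auxin (orange) libraries, with a line at each group mean. UPF1 moves from 3.53 to 6.24% in DMSO up to 27.4 to 36.4% in auxin, and SMG9 from 24.3 to 32.4% up to 47.7 to 59.2%.

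Of the members' transcripts, 36 could be tested for a change in share, and 12 were called, 7 higher and 5 lower, against 17.2% of the 46441 transcripts tested. They belonged to UPF1, UPF2, UPF3A and SMG9. The test was limma on the log2 ratio of the transcript's TPM to the TPM of the gene's other transcripts. It treats transcripts of a gene as separate, although a share gained by one is lost by another.

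UPF1-201, the main coding transcript of UPF1, took 79.3, 76.3 and 73.8% of the gene's TPM in DMSO and 55.2, 57.1 and 56.9% in auxin (adjusted p 0.00304). UPF1-204, annotated as a retained intron and holding 938 bases of intron 15 of 23, took 3.06, 1.39 and 2.04% in DMSO and 14.8, 12 and 9.71% in auxin (adjusted p 0.00328). Both transcripts separated the groups completely, in opposite directions. On log ratios of expected counts UPF1-201 had an adjusted p of 0.0628, and 1.00 in edgeR diffSpliceDGE. UPF1-213 and UPF1-212 are named although their shares were under 10%, a choice made after their values were seen. UPF1-213, a processed transcript that starts inside intron 1, went from a mean of 0.603% to 7.72% (adjusted p 0.00373). UPF1-212, which keeps intron 10, took 8.45, 6.10 and 1.56% in auxin replicates 1 to 3 and at most 0.786% in a DMSO library (adjusted p 0.0191). Its level was low, at 0.18, 0.04 and 0.05 TPM in DMSO and 0.76, 0.32 and 0.09 TPM in auxin. In TPM the groups overlapped, with auxin replicate 3 below DMSO replicate 1, and several values lay near the offset of 0.05 TPM.

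The intron kept in UPF1-212 is shown because it is short and lies whole within the transcript. It is 85 bases long (chr19:18855039-18855123, plus strand, GRCh38) with a GC content of 72.9%. The sequence was taken from the GENCODE release 29 transcript with 15 exon bases on each side, and capitals mark the first and last 2 intron bases, the GT and AG of its splice sites.
UPF1 intron 10 of 23: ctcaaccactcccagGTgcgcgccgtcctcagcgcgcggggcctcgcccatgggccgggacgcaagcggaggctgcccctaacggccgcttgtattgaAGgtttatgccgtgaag

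UPF1 has a second coding transcript, UPF1-207, in which a downstream splice donor of exon 7 adds 33 bases, or 11 codons. These bases are shown in capitals within their 15-base flanks (chr19:18853072-18853104, plus strand), because this alternative loop is the known difference between the UPF1 protein isoforms.
UPF1-207 insertion: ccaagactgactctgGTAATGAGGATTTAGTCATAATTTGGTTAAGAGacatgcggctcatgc
UPF1-207 made up 15.4, 20.9 and 23.1% of the summed TPM of UPF1-207 and UPF1-201 in DMSO and 13.3, 19.4 and 21.7% in auxin. The groups overlapped, with a mean of 19.8 ± 4.0 against 18.1 ± 4.3% (SD, n = 3, two-sided exact permutation p = 0.6, where 0.1 is the lowest the test can reach). The proportion was lower in auxin in each of the 3 same-numbered pairs. As a share of the whole gene, UPF1-207 went from 18.9 ± 4.0 to 12.6 ± 3.8% (SD, n = 3, limma adjusted p 0.268, and 0.031 with the replicate block).

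SMG9-211, the main coding transcript of SMG9, took 62.7, 66.5 and 69.1% of the gene's TPM in DMSO and 33.1, 43.9 and 45.3% in auxin (adjusted p 0.00842). Its share was lower in every auxin library than in every DMSO library. In edgeR diffSpliceDGE its log2 change was −0.46 in place of −1.50, with an adjusted p of 0.907. Among the retained-intron transcripts of SMG9, 3 gained share and 1 lost it. SMG9-202, with 346 bases of intron 10 of 12, went from a mean of 2.48 ± 0.49 to 11.3 ± 1.6% (adjusted p 0.00188). SMG9-203, which ends within intron 8, went from 6.07 ± 1.1 to 14.4 ± 1.8% (adjusted p 0.00839, and 0.175 in diffSpliceDGE). SMG9-207, with part of intron 9, went from 7.52 ± 2.3 to 17.5 ± 6.0% (SD, n = 3, limma adjusted p 0.0481), and this call was lost without any of 5 libraries taken singly, DMSO replicate 1 being the exception. SMG9-210, at the 3′ end of the gene, fell from 11 ± 1.2 to 5.16 ± 0.47% (adjusted p 0.011), a call lost without DMSO replicate 2 (0.0529), with an offset of 0.5 TPM (0.0623), on expected-count ratios (0.101) and in diffSpliceDGE (0.987). Retained-intron transcripts of SMG9 thus did not all move one way.

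**Figure D4:**
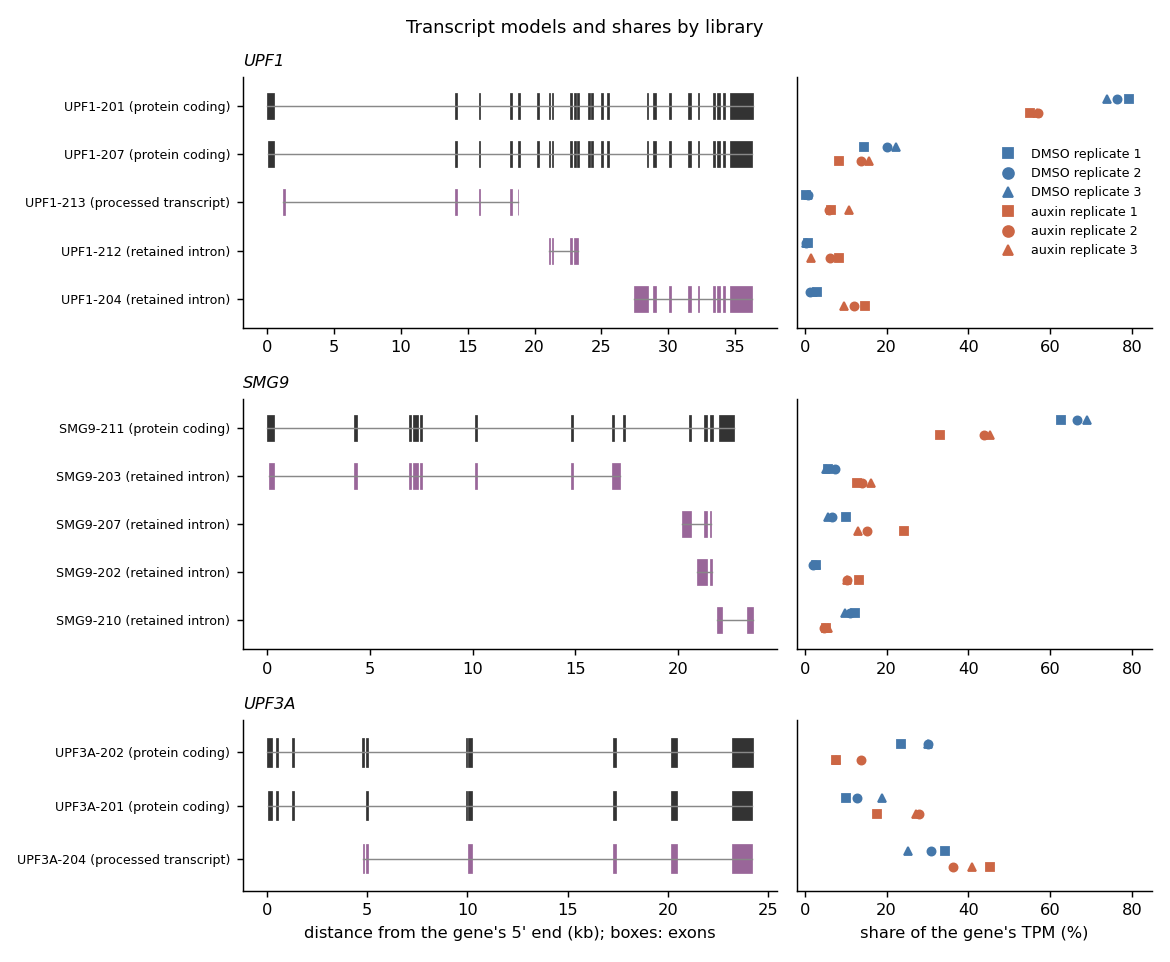
Left, exon models (boxes) of the UPF1, SMG9 and UPF3A transcripts named in the text, drawn by distance in kb from the 5′ end of the gene, coding transcripts in black and others in purple. Right, the share of the gene's TPM, in percent, of each transcript in the 3 DMSO (blue) and 3 auxin (orange) libraries, where UPF1-201, SMG9-211 and UPF3A-202 shift to lower shares and UPF1-204 and SMG9-202 to higher ones in auxin.

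In UPF3A the order of the coding transcripts differed between the groups. UPF3A-202 contains a coding exon of 99 bases (chr13:114286302-114286400, plus strand), or 33 codons, that UPF3A-201 skips. The exon is shown in capitals with 15 flanking bases on each side, because its inclusion is what separates these transcripts.
UPF3A-202 exon: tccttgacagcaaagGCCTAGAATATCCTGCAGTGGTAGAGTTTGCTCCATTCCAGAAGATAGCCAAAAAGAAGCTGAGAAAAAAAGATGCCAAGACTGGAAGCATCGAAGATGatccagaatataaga
Its length is a multiple of a codon, so skipping it keeps the reading frame. UPF3A-202 took 23.5, 30.2 and 30.2% of the gene's TPM in DMSO and 7.72, 13.8 and 7.77% in auxin (adjusted p 0.0103). The groups did not overlap. Of the summed TPM of UPF3A-202 and UPF3A-201, UPF3A-202 made up 70.0, 70.1 and 61.6% in DMSO and 30.3, 33 and 22.2% in auxin. The means were 67.3 ± 4.9 and 28.5 ± 5.6% (SD, n = 3, two-sided exact permutation p = 0.1, the smallest possible). Thus the exon-containing form was the larger of the pair in every DMSO library and the smaller in every auxin library. UPF3A-201 itself went from a mean of 13.9 to 24.4% of the gene (adjusted p 0.118, and 0.0277 with the replicate block). UPF3A-204, a processed transcript with the largest mean share, went from 30.2 to 40.8% (adjusted p 0.1). It starts inside the 99-base exon and holds its end, so the pair does not give the exon's inclusion over the whole gene. In edgeR diffSpliceDGE the adjusted p of UPF3A-202 was 0.128.

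UPF2-202, the main transcript of UPF2, fell from 95.1 ± 0.39 to 90.9 ± 0.93% of the gene's TPM (SD, n = 3, limma adjusted p 0.0174). UPF2-203, named after its values were seen, rose from 4.07 ± 0.39 to 8.38 ± 0.93% (adjusted p 0.0153). These transcripts encode the same protein and differ in their first exon. The call of UPF2-202 was lost without auxin replicate 1 (0.0547) or 3 (0.0674) and without DMSO replicate 2 (0.0545) or 3 (0.0685). In edgeR diffSpliceDGE its log2 change was −0.07 in place of −0.91, with an adjusted p of 1.00.

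The main transcripts of the other 5 members did not pass the test. SMG1-202 had mean shares of 73.8 ± 5.1% in DMSO and 67.5 ± 5.1% in auxin, SMG5-201 of 94.8 ± 2.0 and 94.4 ± 2.2%, SMG6-201 of 93.4 ± 6.8 and 92.8 ± 6.4%, SMG8-201 of 75.0 ± 4.1 and 73.3 ± 1.2%, and UPF3B-202 of 78.9 ± 6.3 and 78.0 ± 5.3% (SD, n = 3). Their limma adjusted p ranged from 0.341 for SMG1-202 to 0.936 for UPF3B-202, and SMG1-202 alone passed with the replicate block (0.0378). The higher level of SMG8 was therefore measured without a detected change in its transcript shares.

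Among protein-coding genes, change after auxin went with base composition and intron length, and the members differed in both. In quintiles of protein-coding genes ordered by the GC content of the main transcript, the median log2 fold change was 0.10, 0.18, 0.15, −0.25 and −0.85 from lowest to highest GC. UPF1, at 60.5% GC, lay in the highest quintile, and SMG5, SMG6 and SMG9 in the fourth. SMG8, at 47.3% GC, lay in the third. In quintiles by mean intron length the medians were −0.84, −0.10, 0.07, 0.12 and 0.13 from shortest to longest. UPF1, with introns of 1.35 kb on average, and SMG9, with 1.69 kb, lay in the second quintile, as did UPF3B, SMG1 and SMG5. SMG8, with 0.658 kb, lay in the shortest and rose. The part of either property in the members' changes was not tested.

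The genes whose pattern over the 6 libraries was most like that of UPF1 were RRP7A, CHRNB1, IVD, LRSAM1 and VPS52. Their root-mean-square difference from UPF1, in log2 CPM centred on each gene's mean, was between 0.0319 and 0.0459. Their log2 fold changes lay between −1.72 for CHRNB1 and −1.55 for RRP7A. Values close to that of UPF1 follow from the choice, which used these same 6 libraries.

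Other genes of the pathway moved in both directions. Each count on these lists from the group alone stands beside 25.4% of all genes tested called higher and 26.9% called lower. Counts with the replicate block stand beside 35.5% and 34.4%. For counts from other settings, the calls over all genes are given with them. Of 13 other NMD factors, 8 rose and 3 fell, with a median log2 fold change of 0.34 beside 0.02 for all genes tested. With the block 10 were called higher and 3 lower. GNL2, a nucleolar GTPase, rose by 1.02 and NCBP2, the small subunit of the nuclear cap-binding complex, by 0.66 on the log2 scale. MOV10, an RNA helicase that works with UPF1, fell by 1.57 and RUVBL2, an ATPase of chaperone complexes that act on SMG1, by 0.89 on the log2 scale.

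Of 12 exon junction complex genes, UPF3B included, 5 rose and 2 fell, with a median of 0.22. CASC3, a core subunit, rose by 0.52 and PYM1, which takes the complex apart, by 0.44 on the log2 scale. ACIN1 and PNN, peripheral splicing-related proteins, fell by 0.58 and 0.54 on the log2 scale. The other core genes EIF4A3, RBM8A and MAGOH did not pass the test with the group alone, and passed with the replicate block (edgeR adjusted p 0.0107, 2.2e-05 and 0.0139). With the block 8 genes of this list were called higher and 3 lower. Of 7 genes tested for translation termination and poly(A) binding, 4 rose and 2 fell, with a median of 0.25. ABCE1, which recycles ribosomes, rose by 0.45 and ETF1, the release factor that reads stop codons, by 0.38 on the log2 scale. PABPC4, a poly(A)-binding protein, fell by 1.77 and EIF4G1, the scaffold of cap-dependent initiation, by 0.26 on the log2 scale. Without auxin replicate 2, auxin replicate 3 or DMSO replicate 2, 2 genes of this list were called higher, and without auxin replicate 2 or 3 or DMSO replicate 1 or 3, 1 was called lower. Of the 20040 to 20291 genes tested in those fits, 3876 to 4637 were called higher and 4493 to 4942 lower. With the replicate block 5 genes of this list were called higher and 2 lower.

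Of 22 genes for decapping, deadenylation and 5′ to 3′ decay, 5 rose and 9 fell, with a median of −0.14. The largest change on any of these lists was in EDC4, the scaffold of the decapping complex, which had 66.6, 44.4 and 46.7 CPM in DMSO and 4.38, 2.38 and 2.47 CPM in auxin. All its auxin libraries lay far below DMSO, with a log2 fold change of −4.08 (edgeR adjusted p 4.0e-05). CNOT3, a subunit of the CCR4-NOT deadenylase, fell by 2.19 on the log2 scale. DCP1B and EDC3, decapping cofactors, rose by 0.59 and 0.47 on the log2 scale. With the replicate block 9 genes of this list were called higher and 12 lower, and with upper-quartile factors 9 higher and 5 lower. Of all 19725 genes tested, upper-quartile factors gave 6534 called higher and 4416 lower.

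Of 20 genes whose RNA serves as an endogenous NMD reporter, SMG5 included, 9 rose and 6 fell, with a median of 0.26. With the replicate block 12 were called higher and 7 lower. UPP1 and GADD45A rose by 0.82 and 0.81 on the log2 scale, and ATF4 and ATF3, stress-response factors on the same list named after their values were seen, by 0.60 and 0.62. NAT9 and ARFRP1 fell by 1.51 and 1.06 on the log2 scale. The list thus did not move one way. Several of its genes are also known to respond to stress, and the cause of their changes was not tested. With upper-quartile factors 59.7% of all called genes were higher, against 48.5% with TMM factors and 40.9% with library size only, so the split between higher and lower calls depends on the scaling. It was 24.0% with limma on log2(TPM + 0.1), which changes both the unit and the test. With limma on log2(TPM + 1), 3 other NMD factors, 2 reporter genes and 0 genes of the exon junction, termination and decapping lists were called higher. In the same fit 2 other NMD factors, 3 reporter genes, 1 exon junction gene, 1 termination gene and 3 decapping genes were called lower. Of all 19725 genes tested, that fit called 970 higher and 2966 lower.

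**Figure D5:**
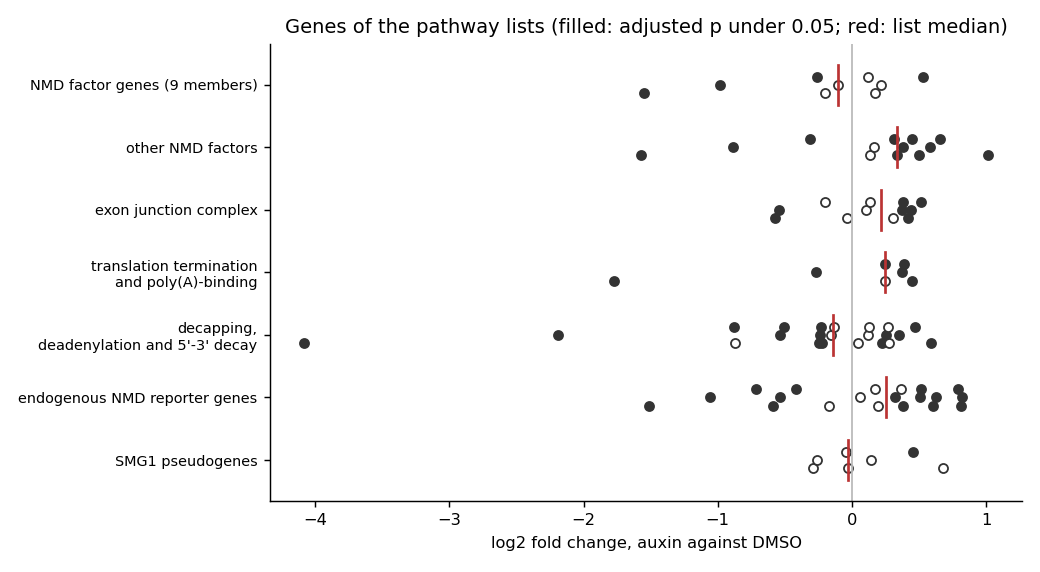
Log2 fold change, auxin against DMSO, of each gene in the NMD factor set and in 6 lists of related genes, with filled points for an adjusted p under 0.05 and a red bar at each median. UPF1 at −1.55 and SMG9 at −0.99 form the low end of the NMD factors, and EDC4 at −4.08 is the lowest gene of any list.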

How the data were processed

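Total RNA was depleted of ribosomal RNA and sequenced as paired-end reads from a stranded kit, per the labels' protocols. Per the submitters' processing notes, the tools were bcl2fastq 2.20, STAR and DESeq2, with build GRCh38 (hg38). The authors deposited, for each library, a gene table and a transcript table with expected counts (estimated read numbers, not normalized), TPM values (scaled by length to a common total) and a posterior standard deviation of the counts, per the file headers. The counting program and whether it used the strand are not given in the sources used here. Transcript values are estimates that divide reads shared by transcripts of a gene. All 58780 human gene IDs matched GENCODE release 29. A further 746 IDs (spike-ins and others), at most 0.00111% of a library, were left out.

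Expected counts were rounded and tested with edgeR 4.0.16 (filterByExpr, TMM, quasi-likelihood F test) in R 4.3.3. CPM uses TMM-scaled library sizes. Shares were tested with limma 3.58.1 (trend) on log2 ratios of TPM with an offset of 0.05 TPM, for transcripts with a mean share of 2 to 98% in genes with a mean TPM of at least 1. Noncoding against coding TPM was tested likewise. All p-values were Benjamini-Hochberg adjusted over all features tested, with a threshold of 0.05. The procedures were checked on simulated data. Alternatives were DESeq2 1.42.0, other scaling factors, no filter, limma on log2(TPM + 1) and log2(TPM + 0.1), other offsets and share filters, expected-count ratios, edgeR diffSpliceDGE, the replicate block and leaving out libraries.

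The replicate numbers come from the labels. The correlation across genes of same-numbered libraries' deviations from their group means was 0.65, 0.27 and 0.28 for replicates 1, 2 and 3, so the numbers were taken as pairs. DMSO replicate 3 correlated slightly better with auxin replicate 2 (0.31), so the pairing of replicates 2 and 3 rests on their labels.

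The members, the gene lists and the tests were chosen with earlier results of these data known. All members were named, with the 2 largest called changes each way of each list, the members' called transcripts with a mean share of at least 10% in either group, each member's largest transcript, and the 5 genes most like UPF1. A further gene that the rule names is not reported here.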

Additional observations from a re-analysis of the deposited data

How the results depend on the processing

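UPF1 kept its call in all 15 alternatives, and the coding to noncoding shift of UPF1 and SMG9 kept its call in all 10. The 1 member called higher became 2 with upper-quartile factors, 3 without replicate 1 of both groups (chosen after seeing the data), 4 with the replicate block and 0 with limma on log2(TPM + 1) or log2(TPM + 0.1). The 3 called lower became 5 with the replicate block and 1 in both limma fits. It was 2 with upper-quartile factors and 2 with no filter, where UPF3A was lost, and 3 with library size only, where UPF3A was lost and UPF3B was gained. Leaving out 1 library gave 1 to 2 higher (2 without auxin replicate 1) and 2 to 3 lower. In those fits 3876 to 4979 of all genes were called higher and 4493 to 5575 lower, of 19998 to 20291 tested. With the block in limma on log2(TPM + 0.1), an alternative also chosen after seeing the data, 1 was higher and 4 lower. Of the 19725 genes tested, the main test called 5010 higher and 5311 lower. With upper-quartile factors these were 6534 and 4416, and with the replicate block 7005 and 6789. Limma gave 970 and 2966 on log2(TPM + 1), and 1017 and 3223 on log2(TPM + 0.1), or 3489 and 6882 there with the block. Library size only gave 3894 and 5625, and no filter 4562 and 5354 of 34180 genes. Leaving out replicate 1 of both groups gave 5914 and 6219 of 19556 genes. The 12 transcripts called became 5 with a minimum share of 10%, where fewer transcripts were tested, 4 in edgeR diffSpliceDGE, and 8 to 12 without 1 library. For these fits the share of all transcripts called is not given here, so these counts cannot be set against transcripts at large. The block brought the transcripts called to 15 by adding UPF1-207, UPF3A-201 and SMG1-202, where 22.3% of all transcripts tested were called. The block ended no call among the members or their transcripts. The cause was not tested where none is named.

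Directions changed only for values that were not called. The log2 fold change of SMG6 was 0.017 with upper-quartile factors. The log2 share ratio on expected counts was 0.13 for UPF3B-202 and 0.35 for SMG6-201, and in diffSpliceDGE 0.019 and 0.0026. Leaving out 1 library, it ranged from −0.37 to 0.15 for UPF3B-202, −0.42 to 0.15 for SMG5-201, −1.01 to 0.39 for SMG6-201 and −0.28 to 0.033 for SMG8-201. There were 3 libraries per group, which limits the precision of every test, and what depth adds to that was not tested.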

Other observations

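SMG6-207, a transcript of SMG6 not annotated as protein-coding, took 9.74% of the gene's TPM in DMSO replicate 1 and 9.69% in auxin replicate 1, and was listed at 0 in the other 4 libraries. SMG1-214, annotated as an NMD target, likewise had its highest share in replicate 1 of each group, 3.80% in DMSO and 6.04% in auxin. SMG1-214 was also higher in auxin than in DMSO in each of the 3 same-numbered pairs, and its change in share had an adjusted p of 0.618 in limma, or 0.0595 with the replicate block.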
